A study of Mus musculus with 74 samples.

Results

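H3K9me3, a repressive mark on lysine 9 of histone H3, was compared between mouse embryos cloned by somatic cell nuclear transfer (SCNT) that had reached 4 or 8 cells. All peaks of both lists on the 19 autosomes were taken, 133973 in 4-cell embryos and 184050 in 8-cell embryos, together 318023 of the 1611250 peaks in the 10 lists of the series. The embryos came from nuclei of B6D2F1 cumulus cells, the female somatic cells around the oocyte, injected into enucleated B6D2F1 oocytes, which were activated with strontium chloride and cytochalasin B and cultured in G-1 PLUS medium. Embryos of a stage were pooled without regard to their capacity for further development. By the labels, 3 H3K9me3 precipitates and 3 inputs stood behind the 4-cell list, and 7 precipitates and 4 inputs behind the 8-cell list. The measurement was ULI-NChIP-seq, in which native chromatin from few cells is cut with micrococcal nuclease and precipitated. Reads of a stage were merged before peaks were called, so each stage gave 1 value, neither an error between libraries nor a test over samples could be had. Peak lists hold no expression values, and the stage named in the labels was not checked against marker genes.

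H3K9me3 is laid down by SUV39H and SETDB1 enzymes and bound by HP1 proteins, and it marks constitutive heterochromatin, silenced retrotransposons and clusters of tissue-specific genes. In nuclear transfer the mark carried by the donor genome is known as a barrier to reprogramming. Between the 4-cell and 8-cell stage a mouse embryo passes through a further wave of gene activation and starts to compact, before the trophectoderm and inner cell mass part. A 1-kb window was called marked where peaks covered at least 50% of it, lost where it was marked in 4-cell embryos alone, gained where it was marked in 8-cell embryos alone, and kept where it was marked in both. In a region without a peak the mark stayed under the detection threshold of the caller, which does not show that it was absent. The other 8 lists, given for context, are the donor cumulus cells (CC), SCNT embryos at 6 h and 14 h post activation (6 hpa and 14 hpa), SCNT 2-cell embryos, morulae, the inner cell mass (ICM) and the trophectoderm (TE), and fertilized embryos at the PN5 pronuclear stage.

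Examples of the sequence that changed are shown by highly ranked items on either side. They were taken from GRCm38.p6 (mm10) and written 5′ to 3′ with each CpG in capitals. The Mup21 promoter was lost and the Myl4 promoter was gained. Both run on the strand of the gene from RefSeq, chr4:62150792-62151091 on the minus strand and chr11:104550413-104550712 on the plus strand. The next pair, on the plus strand, are the middles of the longest run of lost windows outside the 5S ribosomal RNA genes, chr12:112780351-112780650 in an exon of Ahnak2, and of the longest run of gained windows, chr10:85232851-85233150 in the noncoding transcript Gm38575, whose nearest coding gene is Cry1 at 43936 bp. The last pair are the whole peaks with the highest fold among those without a base in the other list, chr10:72297178-72297350 with a fold of 11.9 in 4-cell embryos and chr7:93957738-93957890 with a fold of 46.5 in 8-cell embryos. Both lie outside genes.
Mup21 promoter, lost: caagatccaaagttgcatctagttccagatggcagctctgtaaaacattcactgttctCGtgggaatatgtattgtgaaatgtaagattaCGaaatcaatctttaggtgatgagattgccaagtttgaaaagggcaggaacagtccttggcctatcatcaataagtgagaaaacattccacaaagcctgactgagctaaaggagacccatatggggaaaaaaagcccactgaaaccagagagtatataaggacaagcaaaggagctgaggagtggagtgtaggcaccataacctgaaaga
Myl4 promoter, gained: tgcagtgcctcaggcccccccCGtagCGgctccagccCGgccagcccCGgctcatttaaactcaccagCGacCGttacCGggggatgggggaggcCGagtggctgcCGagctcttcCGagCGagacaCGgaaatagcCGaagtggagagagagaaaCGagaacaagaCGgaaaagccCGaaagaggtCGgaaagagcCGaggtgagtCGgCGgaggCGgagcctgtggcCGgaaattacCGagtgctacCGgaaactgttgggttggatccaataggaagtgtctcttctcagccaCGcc
Ahnak2 exon, lost run: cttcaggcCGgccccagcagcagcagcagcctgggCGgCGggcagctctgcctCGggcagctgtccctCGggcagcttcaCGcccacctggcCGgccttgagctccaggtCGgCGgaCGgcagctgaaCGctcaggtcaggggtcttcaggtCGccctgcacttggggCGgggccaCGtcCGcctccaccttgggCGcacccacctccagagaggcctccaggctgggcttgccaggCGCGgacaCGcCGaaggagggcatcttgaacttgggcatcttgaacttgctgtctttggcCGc
Gm38575 run, gained: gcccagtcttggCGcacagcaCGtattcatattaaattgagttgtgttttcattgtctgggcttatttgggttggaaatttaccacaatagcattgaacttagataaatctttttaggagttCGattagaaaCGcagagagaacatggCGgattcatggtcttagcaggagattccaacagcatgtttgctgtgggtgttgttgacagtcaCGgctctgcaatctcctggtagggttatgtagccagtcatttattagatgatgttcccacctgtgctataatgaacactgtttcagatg
4-cell peak: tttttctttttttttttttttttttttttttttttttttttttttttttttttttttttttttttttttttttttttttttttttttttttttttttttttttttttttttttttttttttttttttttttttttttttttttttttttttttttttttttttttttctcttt
8-cell peak: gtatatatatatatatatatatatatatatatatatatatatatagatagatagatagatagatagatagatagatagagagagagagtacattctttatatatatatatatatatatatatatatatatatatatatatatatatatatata

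The lost Ahnak2 stretch had 69.7% GC and 21 CpGs in 300 bases, whereas the gained Gm38575 stretch had 42% GC and 6 CpGs. The Mup21 promoter had 2 CpGs and the Myl4 promoter 25, and the peak that marked them covered 80.3% and 33.0% of the printed bases. This pair does not stand for its classes in CpG number, since the lost Gm13283 promoter had 22 CpGs and the gained Cdc27 promoter 21. The 4-cell peak was nearly a single run of T with 1.73% GC, and the 8-cell peak was an AT-rich simple repeat with 11.1% GC, and the assembly soft-masks 100% of both as repeats. Other lists held them too: the list of 6 hpa covered 100% and that of CC 98.3% of the 4-cell peak, and the morula list covered 100% and that of CC 96.1% of the 8-cell peak. For the 5 lost and 5 gained promoters of highest fold, a RefSeq promoter sequence was matched for 5 of 10.

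The 8-cell list held more and shorter peaks of lower fold. Peak number was 1.37 times that of the 4-cell list, while covered length was 168 Mb against 156 Mb, or 7.03% against 6.53% of the assembled autosomes. The ratio of covered length was 1.08, and it turned to 0.886 once only peaks with a −log10 q of 2 or more were used. Median peak width was 694 bp in 4-cell embryos and 574 bp in 8-cell embryos, and the authors' median fold enrichment was 3.04 and 2.87. Peaks of at least 10 kb numbered 367 in 4-cell embryos and 160 in 8-cell embryos, where they held 3.12% and 1.162% of the covered length. In bases, 94.1 Mb was shared, which was 60.2% of the 4-cell and 55.9% of the 8-cell length and made a Jaccard index (intersection over union) of 0.408. Read numbers were levelled between groups before calling, and the lists do not give the depth of single libraries. The threshold of the caller is not given in the sources used here, so whether it was the same for both lists is unknown. The lowest −log10 q of a peak was 1.33 in either list.

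Wide 4-cell domains stayed mostly covered, often by several 8-cell peaks, and narrow peaks often met no peak of the other list. A wider peak is more likely to share a base with the other list by its width alone, so shares by width are descriptive. Of the 48055 4-cell peaks narrower than 500 bp, 49.5% shared no base with an 8-cell peak, against 13.5% of those of 1 to 2 kb and 2.13% of those of 2 to 5 kb. All 367 4-cell peaks of at least 10 kb met an 8-cell peak, and 89.9% of them met 2 or more, with a mean of 3.25 8-cell peaks each. In the other direction, 64.4% of the 160 8-cell peaks of that width met 2 or more 4-cell peaks, with a mean of 2.09. The median 4-cell domain of this width had 81.95% of its bases under 8-cell peaks. Among 8-cell peaks, 45.4% shared no base with the 4-cell list, and these had a median fold of 2.78 and a median width of 383 bp.

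The gain in covered length was spread over the chromosomes. Per autosome, coverage was 6.51% ± 1.46 (SD, n = 19 autosomes) in 4-cell embryos and 7.03% ± 1.34 in 8-cell embryos, where autosomes describe evenness along the genome and are not replicates. The 8-cell to 4-cell ratio was above 1 on 18 of 19 autosomes and ranged from 0.964 on chromosome 5 to 1.17 on chromosome 19. Peak number was higher in 8-cell embryos on all 19, by 1.26 to 1.48 times. Chromosome 7, which carries many olfactory and vomeronasal receptor clusters, was the most covered at both stages, with 9.57% and 9.997%, and chromosome 3 the least, with 4.52% and 5.01%.

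**Figure D1:**
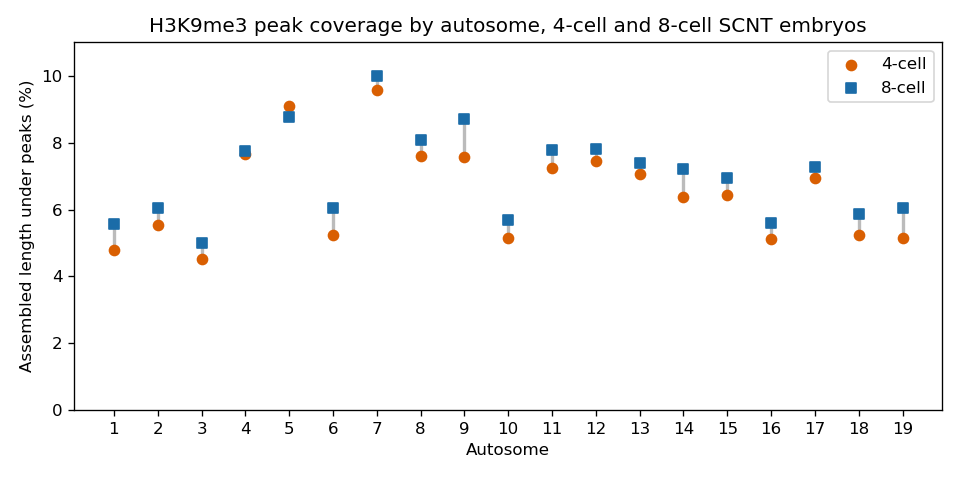
Share of the assembled length of each autosome under H3K9me3 peaks (y axis, percent) in the 4-cell list (circles) and the 8-cell list (squares), with 1 pooled value per stage and no error bar. The 8-cell value lies above the 4-cell value on every autosome except chromosome 5, where the ratio was 0.964.

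In windows, gain and loss were of similar size. Of 2395928 windows, 142469 were marked in 4-cell embryos and 146278 in 8-cell embryos, and 83994 were kept. The 58475 lost windows were 2.44% of all windows and 41.0% of those marked in 4-cell embryos (Wilson 95% interval 40.8 to 41.3%). The 62284 gained windows were 2.60% of all windows and 42.6% of those marked in 8-cell embryos (42.3 to 42.8%). These intervals cover counting error alone, and neighbouring windows are not independent. Many changes were partial: 38.4% of the lost windows held no 8-cell base and 52.1% of the gained windows no 4-cell base. On average a lost window still had 179 bp under 8-cell peaks and a gained window 137 bp under 4-cell peaks.

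Windows with high fold were those most often kept. A window took the fold of the whole peaks over it, averaged by covered base, so it is not a signal of the window alone. Fold also went with peak width: the median of 4-cell peaks was 2.96 under 500 bp and 3.58 at 10 kb or more. The part of width in retention was not tested. Among 4-cell windows, 39.4% of the 25% with the lowest fold were also marked in 8-cell embryos, and 81.1% of the 10% with the highest fold. Among 8-cell windows the share already marked in 4-cell embryos was 36.5% for the lowest 25% and 81.98% for the highest 10%. Kept windows had a median fold of 3.34 in 4-cell embryos and 3.11 in 8-cell embryos. The fold of the peaks over kept windows moved little, with a median log2 ratio of 8-cell over 4-cell of -0.10 and quartiles of -0.22 and 0.01. It was over 1.5 times higher in 8-cell embryos in 0.0607% and over 1.5 times lower in 0.967% of them.

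Changed windows were poorer in CpG and in repeats than kept ones. Mean CpG number per kb was 14.2 in kept, 10.6 in lost, 9.13 in gained and 8.21 in unmarked windows, and the soft-masked share was 49.2%, 40.8%, 37.85% and 32.6%. Gene bodies held 30.0% of the gained and 28.1% of the lost windows, against 42.6% of the unmarked ones. The last 10 Mb before the distal chromosome end held 11.5% of the lost, 10.5% of the gained and 7.43% of the unmarked windows. Runs were short, with 85.7% of the gained and 82.8% of the lost runs a single window long, and the longest were 8 and 14 windows.

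GC-rich windows differed from the rest in the balance of gain and loss. In windows of at least 55% GC, 4546 were marked in 4-cell embryos and 3240 in 8-cell embryos, a ratio of 0.713, while ratios lay between 0.967 and 1.08 in bins from 35 to 55% GC. Of the GC-rich 4-cell windows 39.2% were lost, and of the GC-rich 8-cell windows 14.8% were gained. The 1784 lost windows of this kind had 38.4 CpGs per kb on average and the 478 gained ones 21.3. Of the lost ones, 77.1% had also been marked at 6 hpa and 65.25% in 2-cell embryos, and 26.1% were marked in the morula. The share of marked windows with at least 55% GC varied between lists, from 8.22% at 6 hpa to 3.19% in 4-cell embryos, 2.21% in 8-cell embryos and 1.73% in the morula. The part of GC composition in the result was not tested. In AT-rich windows turnover was high both ways: from 38 to 40% GC, 73.1% of 4-cell windows were lost and 73.4% of 8-cell windows were gained.

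**Figure D2:**
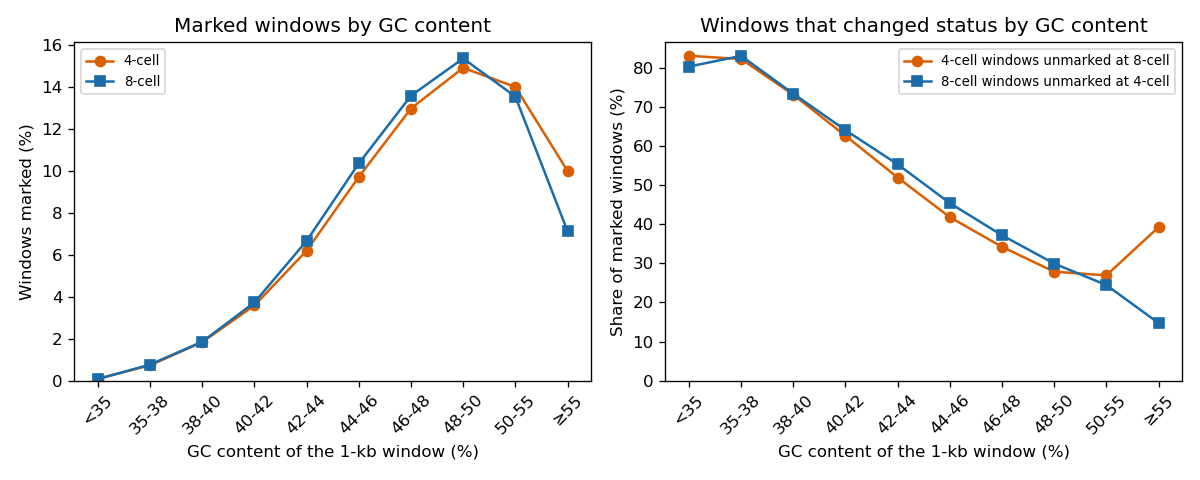
Left, share of all 1-kb windows marked (y axis, percent) by GC content of the window (x axis, percent) in the 4-cell (circles) and 8-cell (squares) lists. Right, share of 4-cell windows unmarked in 8-cell embryos and of 8-cell windows unmarked in 4-cell embryos. The curves run together up to 50% GC and part at 55% and over, where 39.2% of 4-cell windows were lost and 14.8% of 8-cell windows were gained.

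The other 8 lists, which were not used to define the classes, separated lost from gained windows by their past more than by their future. Lost windows had been marked in 2-cell embryos in 34.5% (34.1 to 34.9%) and gained ones in 19.13% (18.8 to 19.45%), against 66.1% of kept windows. At 14 hpa the shares were 44.8% and 29.1%, and in CC 34.3% and 24.0%. In the morula they were 39.8% and 35.4%, against 73.5% of kept and 2.77% of unmarked windows. Marks in none of the other 8 lists were found for 36.2% of the gained, 23.3% of the lost and 7.63% of the kept windows. Across the 2-cell, 4-cell, 8-cell and morula lists, 35197 windows were marked in 8-cell embryos alone, 25873 in 4-cell embryos alone and 45678 in all 4. Another 10820 windows were marked in the 2-cell, 4-cell and morula lists with a gap in the 8-cell list.

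Recent history went with retention more than donor history did. Of 4-cell windows marked in 2-cell embryos, 26.6% were lost, against 57.4% of those unmarked there. With a 2-cell mark the lost share was 23.2% where CC was also marked and 31.6% where it was not. Without a 2-cell mark it was 58.9% and 56.9%.

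**Figure D3:**
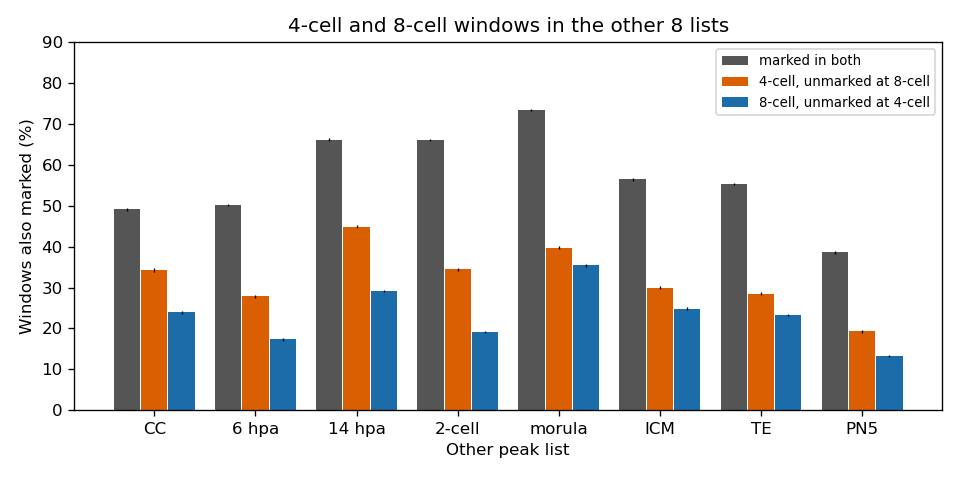
Share of kept (grey), lost (orange) and gained (blue) windows that were also marked in each of the other 8 lists (y axis, percent), with Wilson 95% intervals that cover counting error. Kept windows were highest in every list, lost windows stood above gained ones in every list, and the morula gap (39.8% against 35.4%) was the narrowest in percentage points.

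Regions heavily marked in the donor cells lost net coverage. Of 2378 bins of 1 Mb, 1357 had more marked windows in 8-cell embryos and 898 had fewer. In the 1538 bins with fewer than 50 CC windows the 8-cell to 4-cell ratio of marked windows was 1.10 and 61.1% of the bins rose. In the 84 bins with at least 400 CC windows the ratio was 0.915 and 33.3% rose, at a mean GC of 41.9% against 42.35%. The deepest fall was at chr4:153000001-154000000, around Ajap1, from 710 to 572 marked windows of 1000. The same bin had 910 in CC, 773 in 2-cell embryos and 504 in the morula. Next was chr5:116000001-117000000, with Cit, Ccdc60 and Srrm4, from 433 to 334, after 829 in CC. The highest net gains were smaller: chr9:45000001-46000000, which holds Cd3e and Scn4b, rose from 131 to 199 windows with 6 in CC and 72 in the morula, and chr7:135000001-136000000, with Dock1 and Mki67, from 147 to 213 with 21 in CC and 179 in the morula.

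Few protein-coding genes were covered by domains at either stage. A gene was called marked where peaks covered at least 50% of its body, which held for 432 of 20807 genes in 4-cell embryos and 435 in 8-cell embryos, with 273 in both. The 162 gained genes were 0.779% of all genes and the 159 lost genes 0.764%, and 36.8% (32.4 to 41.45%) of the genes marked in 4-cell embryos were lost. Marked genes were short: the median length was 3.80 kb for lost, 3.90 kb for gained and 3.91 kb for kept genes, against 18.3 kb for unmarked ones. With −log10 q of at least 2 the counts were 89 gained and 159 lost, and with lists of equal covered length 133 and 188, so the balance of gain and loss depended on the setting.

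Among genes of at least 5 kb, the losses of largest extent fell on genes of varied function, several of them marked since the donor cell. Psg22, a pregnancy-specific glycoprotein of the placenta, went from 71.9% to 12.8% covered, after 82.1% in CC and 76.7% in 2-cell embryos and with 0 in the ICM. Il3ra, the interleukin 3 receptor alpha chain, went from 82.8% to 27.8%, and was at 69.65% in the morula and 88.4% in the ICM. Sfi1, which encodes a centrosomal protein and lies near the centromeric end of chromosome 11, went from 80.6% to 33.9%, after 95.6% in 2-cell embryos and before 0.167% in the ICM. Its peaks had a low fold of 1.90 and 1.59. Ahnak2, whose giant exon held a run of 11 lost windows at chr12:112775001-112786000, went from 40.6% to 3.43%, while the 4 earlier lists had covered 33.1% (CC), 39.95% (6 hpa), 40.3% (14 hpa) and 40.1% (2-cell) of it. In the morula it was at 0.650% and in both blastocyst lineages at 0. Dmrt2, a transcription factor of somite development, went from 80.2% to 30.4%, Barhl2, a homeobox gene of the nervous system, from 54.1% to 0, and Dlx4, a distal-less homeobox gene, from 35.5% to 0. Oas1d, of the oligoadenylate synthetase family, went from 55.5% to 18.8%, and the pheromone receptor Vmn1r223 from 37.9% to 0. Gm8005, a predicted gene, completed the 10 with 77.2% and 35.4%. It lies on chromosome 14 between the gained genes Gm3486 and Gm3015, so reads shared between similar copies may make its value uncertain too. Ahnak2, Dlx4 and Vmn1r223 were under 50% at both stages and so count as unmarked.

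The gains of largest extent included a keratin pair and members of clusters of similar genes. Pdzk1ip1, a small membrane protein of epithelia, went from 0 to 61.8% and was at 0 in the other 8 lists. Krt82, a hair keratin, went from 8.28% to 63.8% and was at 0 in CC and in 2-cell embryos, and its neighbour Krt90 went from 14.8% to 60.5%. Bpifa1, an airway secretory protein, went from 20.5% to 61.5%, with 2.41% in 2-cell embryos and 9.51% in the morula. Olfr462 went from 19.5% to 60.9%, after 40.4% in 2-cell embryos. The other 5, Gm3486, Gm3015, Gm21680, Gm10471 and Speer4a, lie in clusters of similar genes on chromosomes 14 and 5, and reads shared between similar copies make their values uncertain. Gm3486 was at 0 and 65.6%, after 59.0% in CC, Gm3015 at 14.3% and 60.3%, after 100% in CC, and Speer4a at 0 and 45.2%, under the 50% rule.

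**Figure D4:**
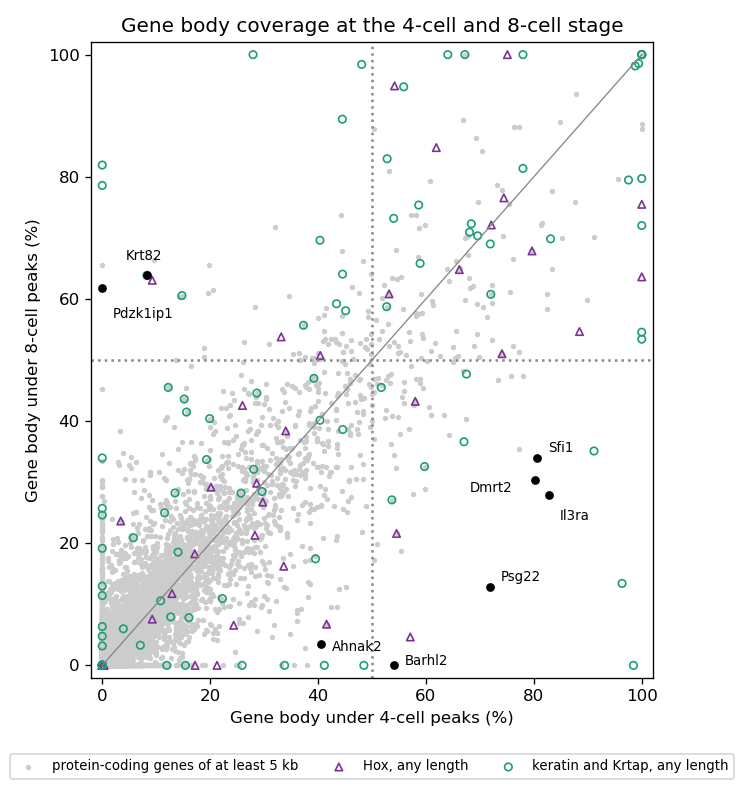
Percent of each gene body under 4-cell peaks (x axis) and 8-cell peaks (y axis), with protein-coding genes of at least 5 kb in grey, Hox genes as triangles and keratin and keratin-associated genes as open circles. Dotted lines mark 50%. Barhl2 (54.1% to 0) and Psg22 (71.9% to 12.8%) lie far below the diagonal and Pdzk1ip1 (0 to 61.8%) far above it.

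By length, the largest changes lay mostly in long genes. Erc2, an active zone scaffold of synapses, rose from 149 kb to 200 kb covered, Ptprn2, a phosphatase-like protein of secretory granules, from 109 kb to 156 kb, and Grik4, a kainate receptor subunit, from 111 kb to 154 kb. Thsd4 rose from 45.8 kb to 90.6 kb and Rbms3, an RNA-binding protein, from 64.0 kb to 108 kb. Grik4 went from 2.20% in CC and 8.90% in 2-cell embryos to 26% and 36.2%, and was at 19.2% in the morula. Among the lower values, Gm20388 went from 597 kb to 479 kb, Mtus2 from 152 kb to 114 kb, the adhesion gene Sdk1 from 340 kb to 308 kb and Ccdc60 from 119 kb to 87.6 kb. The body of Gm20388 contains the 5S ribosomal RNA cluster described below, so its fall includes the fall of that cluster. Sfi1, with a body of 61.6 kb, went from 49.7 kb to 20.9 kb. Ccdc60 was covered to 92.3% in CC, 74.2% in 2-cell embryos, 72.25% and 53.3% at the 4-cell and 8-cell stages and 31.9% in the morula. Among the 5 genes with the longest shared cover, Csmd2 had 318 kb and 297 kb and Cdh13, an atypical cadherin, 358 kb and 350 kb. Fgfr2 had 404 kb and 429 kb, and it and Gm20388 have annotated bodies of over a megabase that span other genes.

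The 5S ribosomal RNA genes, transcribed by RNA polymerase III, changed as a block. In the 85.0-kb cluster at chr8:123538786-123623745, with 63.1% GC, 50 of 51 annotated genes were marked in 4-cell embryos and 6 in 8-cell embryos, and 44 were lost and 0 gained. The cluster was covered to 99.0% in 4-cell embryos and 26.8% in 8-cell embryos, and to 100% at 6 hpa, 37.8% in 2-cell embryos, 10.7% in the morula, 77.85% in the ICM and 17.2% in the TE. It held the longest and the third longest run of lost windows, 14 and 9 windows. The cluster lies within the annotated body of Gm20388, so the falls of the gene and the cluster are not separate observations. The copies are near-identical, so reads cannot be assigned to single genes, and the cluster stands as 1 region rather than 51 observations.

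Promoters, the bases within 1 kb of the annotated start, were called marked where a peak covered at least 50% of them or where at least 50% of a peak lay inside. By this rule 1269 of 20807 were marked in 4-cell embryos and 1414 in 8-cell embryos, with 804 kept, 610 gained (2.93% of all) and 465 lost (2.23%). Of these, 487 gained and 345 lost promoters had no base of the other list. Where peaks had to cover at least 50% of the promoter, 188 were gained and 242 lost, and with −log10 q of at least 2, 330 and 414. With lists of equal covered length the counts were 515 and 559, so the balance of promoters also depended on the setting. By percent covered, 1084 promoters were higher and 1168 lower in 8-cell embryos. Under the main rule a narrow peak can make a promoter gained while its covered share falls. Lost promoters were richer in CpG. An observed-to-expected CpG ratio of at least 0.6 was found in 15.5% of lost, 3.44% of gained, 5.22% of kept and 37.8% of unmarked promoters, and median GC was 48.6%, 44.03%, 46.6% and 51.97%. Lost promoters had been marked at 6 hpa in 57.4% and in 2-cell embryos in 41.3%, gained ones in 32.3% and 20%, and 25.8% and 31.5% were marked in the morula.

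Several of the promoters of highest fold carried narrow peaks. Among the lost ones, Mup21, a major urinary protein, was covered to 50.6% at fold 4.40, and Gm13283 and Gm9857 to 34.2% and 58.7%. Among the gained ones, Cdc27, a subunit of the anaphase-promoting complex, and Myl4, a myosin light chain, share a divergent promoter on chromosome 11 under a peak of fold 8.73 that covered 7.50%. Gm3526 was covered to 33.0% at fold 9.54, Defa23, an intestinal defensin, to 7.60% and Rps29, a ribosomal protein, to 13.1%.

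Hox genes, the homeobox clusters that pattern the body axis, were covered far above the level of other genes at both stages. Their mean coverage was 38.5% in 4-cell and 35.45% in 8-cell embryos, against 4.51% and 4.76% over all genes. Of 39 genes, 12 were kept, 3 gained and 3 lost in the body, or 7.69% each way against 0.779% gained and 0.764% lost over all genes. Of their promoters 14 were kept, 10 lost (25.6%, against 2.23% over all) and 4 gained (10.3%, against 2.93%). The HoxA span was covered to 21.4% in 2-cell embryos, 54.1% in 4-cell embryos, 45.96% in 8-cell embryos and 4.99% in the morula, and the HoxB span to 22.9%, 43.6%, 41.5% and 6.92%. HoxC and HoxD were lower, at 18.5% and 17.9% and at 21.03% and 19.02%. Single genes moved either way. Hoxd10 went from 57.1% to 4.65% and Hoxb6 from 54.6% to 21.6%, while Hoxa2 went from 33.2% to 53.8%. Hoxa6 and its promoter were covered to 100% in 4-cell embryos, and to 63.6% and 5.75% in 8-cell embryos. More promoters were lost than gained in this list under every setting tried, with 8 to 11 lost and 2 to 4 gained. The spans had 48.9 to 50.03% GC.

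Regulators of development outside the Hox clusters were lost more often than gained at promoters. The list was drawn up after losses of such genes had been seen in these data, so its counts are a description. Of 170 genes from homeobox, Pax, Sox, Tbx, Gata, Fox and related families, 19 promoters were lost (11.2%, against 2.23% of all promoters), 4 gained (2.35%, against 2.93%) and 5 kept. Lost counts stayed above gained ones under every setting, at 6 against 2 with the 50% rule for promoters. Olig2, a factor of oligodendrocyte and motor neuron fate, was covered to 78.8% of its promoter in 4-cell embryos and 0 in 8-cell embryos, after 89.8% at 6 hpa and 61.4% in 2-cell embryos. The body of Nkx2-1, a factor of thyroid and lung, went from 50.3% to 0, and that of Evx1, which lies beside HoxA, from 61.5% to 3.67%. Pax9 went against this, with 22.8% and 100% of its promoter. Median gene GC was 52.2% in this list and 45.45% over all genes, and the part of GC content was not tested.

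Of 41 pluripotency and lineage regulators, none was marked over its body, and 4 promoters were lost (9.76%, against 2.23% over all), none gained and none kept. In a list of this size the absence of marked bodies and gained promoters is near the share over all genes, where 2.08% of bodies were marked in 4-cell embryos and 2.93% of promoters gained. They were Cdx2, the trophectoderm factor, Sox2, a pluripotency factor, Tfap2a and Dppa5a. At the Cdx2 promoter 23.4% was covered in 4-cell embryos and 0 in 8-cell embryos, in the morula and in the ICM, after 49.0% at 6 hpa and 0 in 2-cell embryos. The Sox2 promoter went from 97.3% at 6 hpa to 44.3% at 14 hpa, 21.04% in 2-cell embryos, 42.1% in 4-cell embryos and 0 from the 8-cell stage to the blastocyst lists. Tfap2a, a factor of trophectoderm and neural crest, went from 87.3% to 0 and Dppa5a, a marker of pluripotent cells, from 17.99% to 0. With −log10 q of at least 2 the loss held for 2 of these promoters, and where 50% had to be covered for 1. Cdx2 and Sox2 stand in the previous list as well. The count of gains and losses was 0 among 36 writers, readers and erasers of H3K9 methylation or among 37 genes of compaction, junctions, polarity and Hippo signalling, by the body or by the promoter, and for lists this short that is near the shares over all genes (0.779% and 0.764% by the body, 2.93% and 2.23% by the promoter).

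Keratins and keratin-associated proteins, the structural genes of epidermis and hair, were the other group of high cover, with a mean of 34.0% in 4-cell and 36.9% in 8-cell embryos. Of 110 genes, 27 were kept, 12 gained (10.9%, against 0.779% over all genes) and 8 lost (7.27%, against 0.764%). By promoter 49 were kept, 17 gained (15.45%, against 2.93%) and 13 lost (11.8%, against 2.23%). At equal covered length the counts were 10 gained and 10 lost by the body, so no direction is given. The 27 type I keratin genes on chromosome 11 had a median of 8.27% in 2-cell embryos, 40.35% and 44.6% at the 4-cell and 8-cell stages and 18.8% in the morula, with 0 in CC. Krt15, of basal keratinocytes, went from 48.1% to 98.4%, and Krt6b from 44.5% to 89.4%. Krt16 stayed at 99.4% and 98.5%, and Krt35 was at 100% in both. Krtap29-1 went from 98.4% to 0 and Krtap5-5 from 96.3% to 13.4%, whereas Krtap6-3 went from 0 to 81.9%.

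Chemosensory receptor genes were marked at few members by the body and at more by the promoter. Their median GC was 36.9% for olfactory and 38.9% for vomeronasal type 1 receptors. Of 1128 olfactory receptor genes, 18 were gained (1.60%, against 0.779% over all genes), 9 lost (0.798%, against 0.764%) and 11 kept by the body. By the promoter 93 were gained (8.24%, against 2.93%), 41 lost (3.63%, against 2.23%) and 55 kept. Where 50% of the promoter had to be covered, 15 were gained and 15 lost. Among the gained ones, Olfr585 was covered to 0 and 75.3% and Olfr564 to 0 and 74.9%. Olfr593 went from 53.7% to 0. Of 208 vomeronasal type 1 receptors, 4 were gained (1.92%, against 0.779%) and 0 lost (against 0.764%). All 4 lie on chromosome 7, led by Vmn1r166 with 0 and 86.6%. Promoters of the 208 counted 28 gained (13.5%, against 2.93%) and 10 lost (4.81%, against 2.23%). These counts turned to 7 and 12 with −log10 q of at least 2 and to 1 and 5 where 50% had to be covered. Of 119 type 2 receptors, 0 were gained or lost by the body, which for a list this short is near the shares over all genes.

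**Figure D5:**
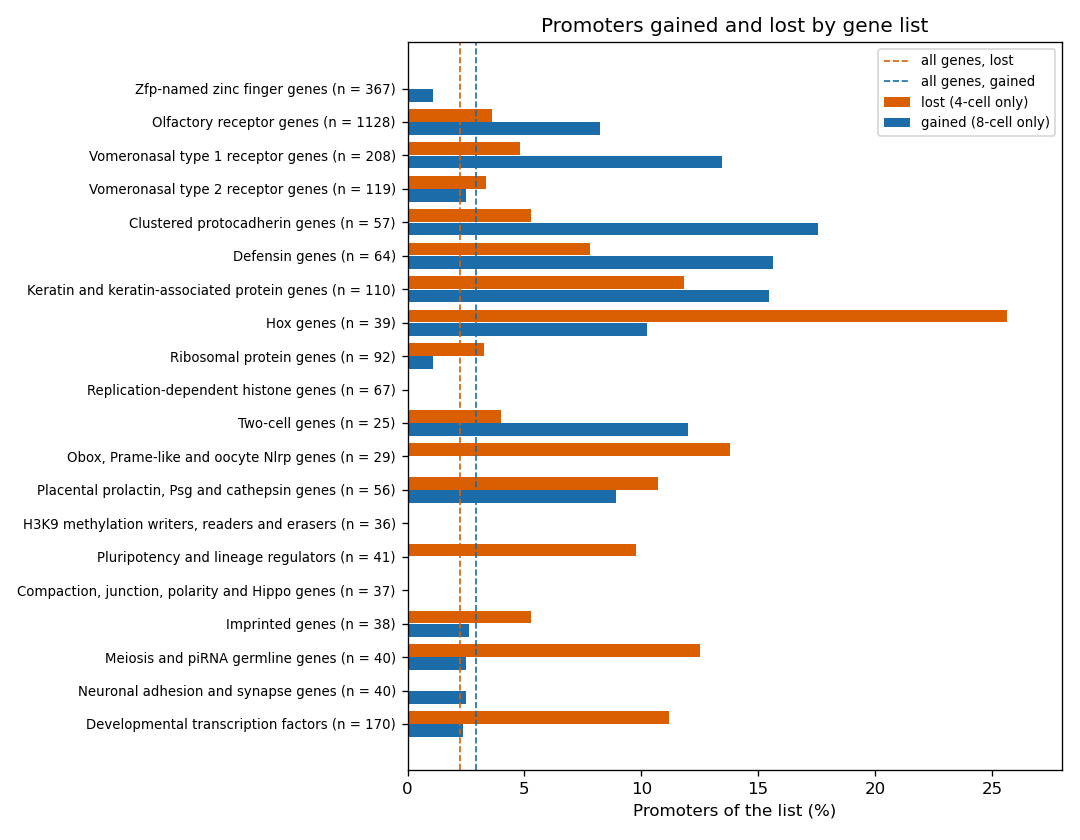
Share of the promoters of each gene list (x axis, percent) that were lost (orange) or gained (blue) from the 4-cell to the 8-cell stage, with dashed lines for all protein-coding genes (2.23% lost, 2.93% gained). Loss exceeds gain in the Hox, developmental factor, pluripotency, oocyte and germline lists, and gain exceeds loss in the olfactory, type 1 vomeronasal, protocadherin and defensin lists. With 50% of the promoter required, loss exceeds gain in the type 1 vomeronasal and defensin lists and gain exceeds loss in the oocyte list.

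Other clusters changed gene by gene. The placental list held 56 prolactin, Psg and cathepsin genes. Of these, 3 were gained (5.36%, against 0.779% over all genes), 3 lost (5.36%, against 0.764%) and 4 kept. Besides Psg22, Psg21 went from 67.3% to 40.4% and the cathepsin Ctsll3 from 54.0% to 27.8%, while Psg23 went from 41.2% to 53.5%, Psg19 from 47.7% to 52.8% and Psg28 from 49.9% to 54.2%. Of 38 imprinted genes, 1 was gained (2.63%, against 0.779%), 2 lost (5.26%, against 0.764%) and 1 kept. Mcts2, an imprinted retrogene, went from 0 to 100% and was at 0 in each list before the 4-cell stage, with 79.6% in the morula and 100% in the ICM. The lost ones, Mkrn3 and Magel2 of the Prader-Willi region, went from 59.1% to 38.3% and from 65.6% to 49.5%. Of 25 two-cell genes, which are expressed briefly in 2-cell embryos, Duxf3 was covered to 100% at both stages. Usp17lb, a deubiquitinase gene, went from 0 to 54.6% after 100% in CC and 6.82% in 2-cell embryos, and Tdpoz3 from 55.5% to 94.5%. By the 50% rule 1 gene of this list was gained over its body (4%, against 0.779% over all genes) and 0 lost. With equal covered length 0 were gained. Of 40 meiosis and piRNA genes, 1 promoter was gained (2.5%, against 2.93% over all) and 5 were lost (12.5%, against 2.23%). The 5 were Mov10l1, Mei1, Syce1, Sycp1 and Ddx4, with Mei1 going from 84.5% to 0 and Ddx4 from 14.1% to 0. With −log10 q of at least 2, and also where 50% had to be covered, 2 promoters of this list were lost and 1 gained. Of 29 Obox, Prame-like and oocyte Nlrp genes, 4 promoters were lost (13.8%, against 2.23%) and 0 gained (against 2.93%). The 4 were Obox7, at 41.03% and 0, and 3 Nlrp genes. Where 50% had to be covered, 0 were lost and 1 gained.

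By the body, the remaining lists changed at few members. Of 367 Zfp genes outside distal chromosome 4, 1 was gained (0.273%, against 0.779% over all genes) and 2 were lost (0.545%, against 0.764%), among them Zfp575 with 97.8% and 33.8%. Of 40 neuronal adhesion and synapse genes, 34 had more and 6 fewer percent of their body covered in 8-cell embryos, with a median difference of 0.47 percentage points. Over all genes 5114 had more, 3372 fewer and 12321 the same, whereas 0 of these long genes had the same, so the figures are not directly comparable. Cdh4 and Csmd2 were marked in both. Of 64 defensin genes 2 were gained (3.125%, against 0.779%) and 2 lost (3.125%, against 0.764%). Their promoters counted 10 gained (15.6%, against 2.93%) and 5 lost (7.81%, against 2.23%), but 2 and 4 where 50% had to be covered. Of 92 ribosomal protein genes 1 was lost (1.09%, against 0.764%). Of 67 replication-dependent histone genes 1 was lost (1.49%, against 0.764%), Hist1h2aa, which was at 100% and 41.5%. The 57 clustered protocadherin genes had a median difference of -2.17 percentage points, with 40 lower and 8 higher. Their promoters, however, counted 10 gained (17.5%, against 2.93%) and 3 lost (5.26%, against 2.23%), and 2 and 2 where 50% had to be covered. These genes share a long common span, so their values are not separate observations.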

How the data were processed

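The authors trimmed reads with Cutadapt (1.16 in the submitters' processing notes), aligned them to mm10 with BWA, merged libraries with SAMtools, and with Picard took out duplicates and levelled read numbers between groups. They called broad peaks against input with MACS2. The deposited lists give a fold enrichment, a ratio over input, and a −log10 q value per broad peak. The authors' version of MACS2 is not given in the sources used here.

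Peaks of the 19 autosomes were laid over 1-kb windows with at least 50% assembled bases of GRCm38.p6 and over GENCODE M21 genes with Python 3.11.15 (numpy 2.4.6, pandas 2.3.3), which were tested on simulated peaks. Coordinates are 1-based. A window or gene was marked at 50% covered, and promoters were marked as in the methods of the study, with 1 kb on either side of the start. Intervals are Wilson 95% intervals. No test across samples was possible. Alternatives were a −log10 q of at least 2, equal covered length, gaps of at most 1 kb closed, any peak base in a window, genes covered to 25% and promoters covered to 50%. Named genes were list members that changed, at most 6 per list and direction, the 10 genes of at least 5 kb and the 5 by length with the largest change each way, the 5 with the longest shared cover, and the 5 promoters, 3 runs and 3 peaks ranked highest on each side. Members, lists and rules were chosen with earlier results of these data known. Some genes that met these rules are not reported here.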

Additional observations from a re-analysis of the deposited data

Results flagged for a closer look

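Outside the autosomes compared here, the 8-cell list held 5 peaks on the mitochondrial chromosome and the 4-cell list 0. The 5 peaks covered 2398 bases in all, with fold from 2.125 to 5.895. The other lists held between 0 and 6, with 6 in the 2-cell list, 5 in the ICM, 2 each in CC, the morula and the TE, 1 at 14 hpa and 0 at 6 hpa and PN5. With 1 pooled list per stage the difference was not tested, and these peaks entered no comparison.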

How the results depend on the processing

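Of 27 recomputed values, 10 stayed within their interval or within 1.5 times the count, 16 moved and 1 reversed. With −log10 q of at least 2 the ratio of covered length reversed from 1.08 to 0.886, the lost share of 4-cell windows was 45.3% and the gained share of 8-cell windows 36.8%, and 89 genes and 330 promoters were gained. With equal covered length, where the ratio is 1 by construction, the shares were 43.1% and 41.4%. With gaps of at most 1 kb closed the ratio was 1.13 and the shares 34.0% and 40.3%, and with any peak base in a window 27.3% and 39.4%. Genes covered to at least 25% gave 337 gained and 280 lost, and promoters covered to at least 50% gave 188 gained and 242 lost. The cause was not tested. Leaving out single replicates was not possible on lists called from pooled reads. No paired analysis was possible because the columns carry no replicate number. A weak or uneven library in either pool cannot be seen in the peak lists. The 4-cell list rests on 3 precipitates and the 8-cell list on 7, and a stage and its pool cannot be told apart. The paper reports high correlations between replicates of each stage. It refers to a source data file for data quality, which was not used here. Depth of single libraries is not given in the peak lists.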
